A study of Mus musculus with 2 samples.

Results

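The 10 genes described here carry long-chain fatty acids into muscle cells and on into mitochondria. They are listed by name for their known roles, a choice made with earlier results of these data known, and are 10 of the 55536 genes in the deposited gene tables: Lpl, Cd36, Slc27a1, Fabp3, Acsl1, Cpt1b, Cpt1a, Slc25a20, Cpt2 and Slc22a5. All 10 were detected in both libraries at a level of 1 TPM or more; TPM counts transcripts, corrected for their length, relative to a fixed library total. The RNA was total RNA of the gastrocnemius, a muscle of the calf. The mice were female, of the first-generation hybrid strain B6CASTF1/J, aged 36 days, and the labels name no treatment. The 2 libraries, replicate 2 and replicate 1, used 300 ng of RNA apiece plus ERCC spike-ins, which are synthetic RNAs, and they form 1 group, so no condition could be compared and no p-value is given. The labels number the tissue samples separately and do not say whether the animals were different. In a gap between the libraries, technical spread and spread between animals or tissue samples therefore cannot be told apart. The fibre and fat markers given below also differed between the libraries.

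Muscle takes up fatty acids that lipoprotein lipase releases from circulating triglyceride and that surface proteins such as CD36 help across the cell membrane. A small binding protein carries them through the cytosol, and an acyl-CoA synthetase activates them. Long-chain acyl-CoA cannot cross the inner mitochondrial membrane, so a carnitine palmitoyltransferase on the outer membrane exchanges the CoA for carnitine, a translocase carries the acylcarnitine inward and a second transferase restores the acyl-CoA for beta-oxidation. The outer transferase is inhibited by malonyl-CoA and is the classical point of control.

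The libraries were deep, with 40656175 and 37735687 estimated counts in replicate 2 and replicate 1, and they stood apart in fibre and fat markers. The 7 fast fibre markers summed to 67530 TPM in replicate 2, against 93405 TPM in replicate 1. The 7 slow fibre markers summed to 2612 TPM in replicate 2, against 15.1 TPM in replicate 1. The fast myosins Myh1 and Myh2, listed here as oxidative fast fibre markers, summed to 1952 TPM in replicate 2, against 279 TPM in replicate 1. Myh1 had 1224 and 132 TPM, and Myh2 had 728 and 147 TPM, in replicates 2 and 1. For the 8 fat cell markers the sum was 114 TPM in replicate 2 and 371 TPM in replicate 1. Endothelial markers summed to 55.7 and 49.3 TPM, and macrophage markers to 30.7 and 28.2 TPM, in replicates 2 and 1. Of all counts, mitochondrial genes held 17.5% in replicate 2 and 9.39% in replicate 1. No marker was at 0 counts in both libraries. In bulk tissue, fewer cells of a type and less RNA per cell cannot be told apart.

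All 10 genes were higher in replicate 2 than in replicate 1, by between 1.30-fold (Cpt1a) and 6.02-fold (Fabp3). The ratio was taken on counts scaled by TMM, a method that sets the bulk of genes equal between libraries. Among the 9996 genes that averaged 100 or more counts, 49.0% were higher in replicate 2 by any amount. Fabp3 and Lpl were over 2-fold higher, which was true of 2.11% of those genes and of 4.68% where genes down to a mean of 10 counts were included, and 8 of the 10 were over 1.5-fold higher, which was true of 5.77%. No member was over 2-fold lower in replicate 2, as 1.21% of genes were. The median log2 ratio of the members was 0.75 and that of the 9996 genes was -0.01. Cpt1b at 1.47-fold and Cpt1a at 1.30-fold lay under the 1.5-fold line, and Slc27a1 at 1.58-fold was the lowest above it. The slow, oxidative fast and fat cell markers moved between the same libraries, and their part in these ratios was not tested.

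**Figure D1:**
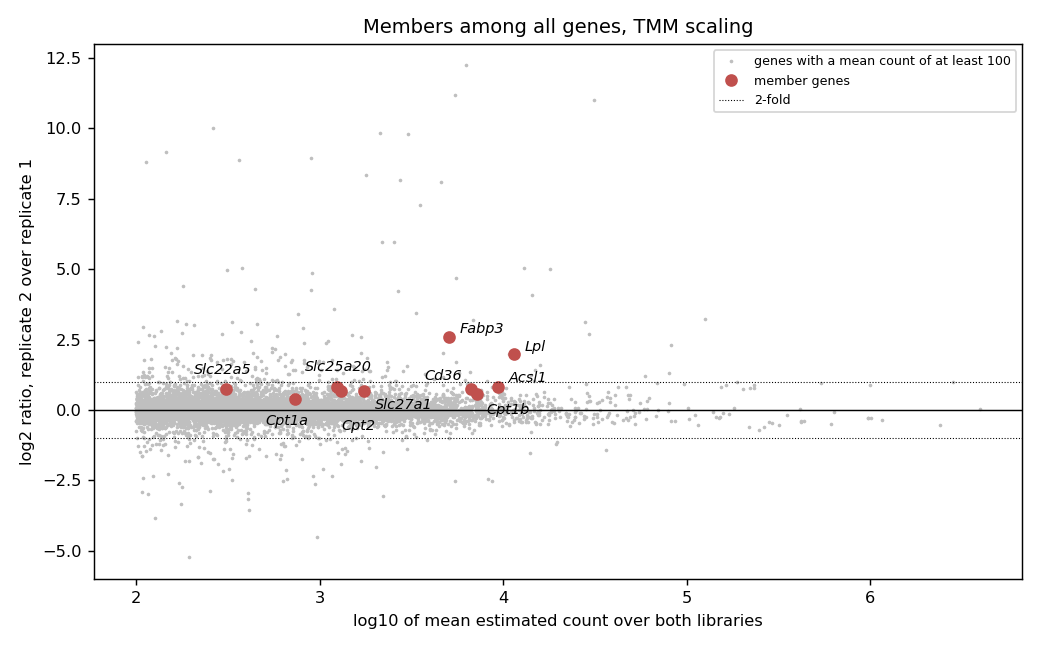
Log2 ratio of replicate 2 over replicate 1 (vertical axis, TMM scaling) against log10 of the mean estimated count (horizontal axis). Grey points are the 9996 genes that averaged 100 or more counts, red points are the 10 members, and dotted lines mark 2-fold. All 10 members lie above 0, and Fabp3 and Lpl lie above the upper 2-fold line.

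By level, the members fell into 4 tiers that did not overlap between the libraries. Fabp3, Cd36, Acsl1, Lpl and Cpt1b formed the first, with means between 95.6 and 219 TPM, and their values overlapped, so their order was not resolved. Slc27a1, Slc25a20 and Cpt2 formed the second, with means between 21.8 and 24.6 TPM and again overlapping values. Cpt1a at 6.64 ± 1.14 TPM and Slc22a5 at 3.96 ± 1.48 TPM (SD, n = 2) stood below them, each apart from its neighbour in both libraries. Within the first tier the order differed. Fabp3 led in replicate 2 and was only the fourth in replicate 1, where Cpt1b led. The median over the 10 genes was 69.5 TPM in replicate 2 and 30.4 TPM in replicate 1, against 7.15 and 7.17 TPM in replicates 2 and 1 over all genes detected in both. The second set of deposited values, estimated directly from the reads without an alignment, kept the same 4 tiers, with Fabp3 leading in replicate 2 and Acsl1 in replicate 1. These values were 1.26 to 1.70 times the alignment-based ones in replicate 2 and 1.29 to 1.82 times in replicate 1, beside medians of 1.42 and 1.53 over all detected genes.

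**Figure D2:**
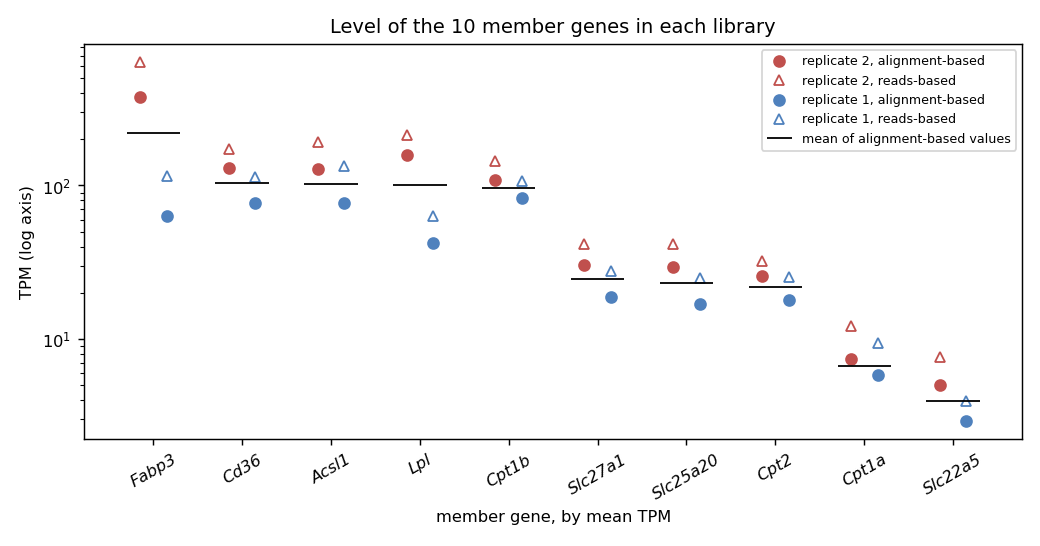
TPM of each member (vertical log axis) in replicate 2 (red) and replicate 1 (blue), by decreasing mean. Circles are alignment-based values, triangles reads-based values, and bars the mean of the 2 alignment-based values. The 4 tiers are visible as steps after Cpt1b, Cpt2 and Cpt1a, and the widest gaps between libraries are those of Fabp3 and Lpl.

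Lpl encodes lipoprotein lipase, which muscle and fat cells secrete and which acts on the wall of capillaries (ENSMUSG00000015568.16, mm10 chr8:68880491-68907448, plus strand). It had 158 TPM from 18372 counts in replicate 2 and 42.0 TPM from 4478 counts in replicate 1. The scaled ratio was 3.93-fold, with a 95% exact (Clopper-Pearson) interval of 3.80 to 4.06. This interval, like those that follow, covers counting error only and no other spread between libraries. Copies of a molecule made by PCR are counted again, so it can be too narrow even for counting error. A higher ratio was seen in 67 of the 9996 genes. Most of its RNA was the coding transcript Lpl-201, with 80.9% of the gene's TPM in replicate 2 and 75.6% in replicate 1, and Lpl-203, annotated as a target of nonsense-mediated decay, held 17.4% and 22.6% in replicates 2 and 1. The fat cell markers, from cells that also express Lpl, ran the other way, 6 of the 7 that averaged 100 or more counts being over 2-fold lower in replicate 2 (1.21% of all genes were). The slow fibre and oxidative fast fibre lists were higher in replicate 2, with median log2 ratios of 9.81 and 2.76. The part of any of these lists in the Lpl ratio was not tested.

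The partners of the lipase had lower ratios than the enzyme itself. Gpihbp1, the endothelial protein that holds the enzyme in the capillary, had 16.9 TPM in replicate 2 and 15.3 TPM in replicate 1, a log2 ratio of 0.18, so that Lpl exceeded Gpihbp1 by 9.34 times in replicate 2 and 2.74 times in replicate 1. Angptl4, a secreted inhibitor of the lipase, had 3.15 and 5.94 TPM in replicates 2 and 1, a log2 ratio of -0.91. Vldlr, a receptor for triglyceride-rich lipoproteins, had 22.8 and 12.6 TPM in replicates 2 and 1, a log2 ratio of 0.83, and Cav1, the caveolar coat protein, had 45.7 and 48.3 TPM in replicates 2 and 1. None of the 5 genes in this list, which also holds Lmf1, was over 2-fold apart, except Vldlr where counts were scaled to the spike-ins (1.22). The list's median log2 ratio was 0.18.

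Cd36, the fatty acid translocase of the cell surface (ENSMUSG00000002944.15, chr5:17781690-17888801, minus strand), had 130 TPM from 8457 counts in replicate 2 and 76.6 TPM from 4867 counts in replicate 1. The ratio was 1.66-fold (95% exact interval 1.61 to 1.72). Cd36 is also made by endothelial cells, macrophages and fat cells. Beside its log2 ratio of 0.74, the median was 0.12 for the endothelial list (-0.20 to 0.95), 0.06 for the macrophage list (-0.04 to 0.35) and -3.15 for the fat cell list (-4.50 to -0.54), and their part in the Cd36 ratio was not tested. Its annotated transcripts began in 3 clusters, and the assignment of reads to them depended on the method. The most upstream cluster, chr5:17888747-17888801, which starts Cd36-203 and Cd36-205, held 74.6% and 75.7% of the gene's TPM in replicate 2 and replicate 1 by alignment, and 39.6% and 37.7% by the reads-based estimate. The middle cluster, chr5:17849729-17849792, held 18.7% and 10.5% in replicates 2 and 1 by alignment, and 39.9% and 43.0% by reads. Cd36 was the only member whose leading transcript differed between the methods, Cd36-203 by alignment and Cd36-202 by reads.

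Slc27a1 encodes FATP1, a fatty acid transport protein with acyl-CoA synthetase activity (ENSMUSG00000031808.7, chr8:71568882-71587302, plus strand). It had 30.2 TPM from 2169 counts in replicate 2 and 18.9 TPM from 1313 counts in replicate 1, a ratio of 1.58-fold (95% exact interval 1.48 to 1.70). It made up 90.6% of the summed TPM of the 6 Slc27 genes in replicate 2 and 83.5% in replicate 1. Transcripts annotated as non-coding held 50.7% of Slc27a1 TPM in replicate 2 and 52.8% in replicate 1 by alignment, and 41.2% and 47.0% by reads. The gene's value thus includes RNA that is not annotated as coding. Among the non-coding transcripts was Slc27a1-202, which retains an intron, at 20.6% and 17.1% in replicates 2 and 1 by alignment. Slc27a1-208, also non-coding and 432 bases long, held 12.3% and 11.6% of alignment-based TPM but 1.84% and 1.69% of counts in replicates 2 and 1. The leading coding transcript, Slc27a1-207, held 26.3% and 31.6% in replicates 2 and 1 by alignment, and 57.4% and 53.0% by reads.

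Fabp3, the heart and muscle fatty acid binding protein of the cytosol, differed most of the 10 between the libraries (ENSMUSG00000028773.8, chr4:130308595-130315463, plus strand). It had 375 TPM from 8748 counts in replicate 2, against 63.0 TPM from 1392 counts in replicate 1. The ratio was 6.02-fold (95% exact interval 5.69 to 6.37), and 50 of the 9996 genes had a higher one. Fabp3 made up 80.3% of the summed TPM of 6 Fabp genes in replicate 2 and 32.7% in replicate 1, where Fabp4, the binding protein of fat cells and endothelium, was higher: the ratio of Fabp3 to Fabp4 was 4.24 in replicate 2 and 0.497 in replicate 1. A processed copy, Fabp3-ps1, was assigned 53.6 counts in replicate 2 and 4.58 counts in replicate 1. The deposited posterior SD of the Fabp3 count, a score of how surely reads were placed, was 11.6 counts in replicate 2 and 5.37 in replicate 1. Zcchc17 lies across Fabp3 on the opposite strand and had 789 counts in replicate 2 and 770 in replicate 1.

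The RefSeq promoter window of Fabp3, the gene with the largest ratio, is shown here as the starting point for the motif search. Windows ran from 250 bases before the RefSeq start site through 50 bases from it on, in build GRCm38.p6, and 8 of the 10 genes matched, with 11 windows. The window of Cd36 and the Slc27a1 windows chr8:71569347-71569646 and chr8:71570344-71570643 held no annotated transcript start of their gene. The 300 bases of Fabp3, chr4:130308488-130308787 on the plus strand, have no capitals, because none of the motifs searched was present. The RefSeq start is at base 130308738, whereas the only annotated transcript, Fabp3-201, starts further upstream, at base 130308595. The window thus holds fewer than 250 bases before the start of Fabp3-201.
Fabp3: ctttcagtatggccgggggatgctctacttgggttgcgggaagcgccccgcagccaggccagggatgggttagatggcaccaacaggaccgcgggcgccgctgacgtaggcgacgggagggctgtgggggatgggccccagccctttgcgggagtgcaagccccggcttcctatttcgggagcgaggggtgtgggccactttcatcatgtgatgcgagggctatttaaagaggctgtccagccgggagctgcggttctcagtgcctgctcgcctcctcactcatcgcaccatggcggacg
The motifs were searched on both strands as exact letters: AGGTCA, the hexamer of nuclear receptors; AAGGTCA, its extended form bound by oestrogen-related receptors, which contains it; a direct repeat of AGGTCA with a spacer of 1 base, the ideal element of PPAR with RXR; TAAAAATA, a core of the muscle factor MEF2; CAGCTG, an E-box of myogenic factors; TATAAA; and GGGCGG, the GC box. Of 32851 mouse windows, 16.3% held AGGTCA and 2 of the 11 member windows did, those of Cd36 and Cpt1a. CAGCTG was in 16.3% of all windows and in 3 of the 11, and GGGCGG in 35.7% and in 8 of the 11. The other motifs, present in 4.72% (AAGGTCA), 0.0396% (the repeat), 2.72% (TAAAAATA) and 13.6% (TATAAA) of all windows, were in none of the 11. A match describes letters in the window and no match says only that these letters are not in it.

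Acsl1, the main long-chain acyl-CoA synthetase of muscle, heart and fat (ENSMUSG00000018796.13, chr8:46471037-46536051, plus strand), had 128 TPM from 11990 counts in replicate 2 and 76.5 TPM from 6615 counts in replicate 1. The ratio was 1.74-fold (95% exact interval 1.68 to 1.79). By alignment its level was close to that of Cd36, with a Cd36 to Acsl1 ratio of 1.01 in replicate 2 and 1.00 in replicate 1. By reads Acsl1 was the higher of them, the same ratio being 0.898 in replicate 2 and 0.853 in replicate 1. Acsl1 held 86.1% of the TPM of 5 Acsl genes in replicate 2 and 76.9% in replicate 1. Acsl6 had 8.51 and 6.69 TPM in replicates 2 and 1, and Acsl4 had 8.04 and 9.72 TPM. Acsl3 had 3.05 TPM in replicate 2 and 4.83 TPM in replicate 1, a log2 ratio of -0.71.

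RefSeq gave Acsl1 2 windows that start different annotated transcripts, and both are shown because the deposited transcript values bear on them. The upstream window, chr8:46470787-46471086 on the plus strand, holds the starts of Acsl1-201, Acsl1-204 and Acsl1-211, with 69.7% of the gene's TPM in replicate 2 and 70.2% in replicate 1 by alignment, and 53.4% and 45.5% by reads. Capitals mark GGGCGG on either strand, with 7 matches.
Acsl1 upstream: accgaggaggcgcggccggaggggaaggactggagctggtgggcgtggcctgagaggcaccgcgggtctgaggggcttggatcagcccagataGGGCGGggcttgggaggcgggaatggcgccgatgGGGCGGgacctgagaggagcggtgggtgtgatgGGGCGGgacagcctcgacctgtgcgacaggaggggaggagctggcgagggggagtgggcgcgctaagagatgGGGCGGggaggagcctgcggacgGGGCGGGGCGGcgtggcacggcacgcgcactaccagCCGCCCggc
The downstream window, chr8:46490716-46491015 on the plus strand, starts Acsl1-203 and Acsl1-205, with 28.2% and 23.3% of TPM in replicates 2 and 1 by alignment, and 14.6% and 14.9% by reads. Capitals mark its single CAGCTG, at 58 to 53 bases before the start.
Acsl1 downstream: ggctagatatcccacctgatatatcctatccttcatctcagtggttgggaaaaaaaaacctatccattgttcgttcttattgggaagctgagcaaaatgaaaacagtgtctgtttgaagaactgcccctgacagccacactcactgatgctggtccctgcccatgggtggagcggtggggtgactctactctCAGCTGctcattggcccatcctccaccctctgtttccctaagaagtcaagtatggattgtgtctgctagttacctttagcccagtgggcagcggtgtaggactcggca
Most of the downstream share by alignment was Acsl1-205, an annotated fragment of 368 bases, which had 23.5% and 21.5% of TPM in replicates 2 and 1 but 2.18% and 2.04% of the gene's counts, since TPM divides by length. The reads-based estimate gave it 0 counts in both libraries. The 6 transcripts that start at chr8:46471037-46471183 held 92.0% of the gene's alignment-based counts in replicate 2 and 95.7% in replicate 1, and 82.8% and 82.4% of its reads-based TPM in replicates 2 and 1.

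Cpt1b and Cpt1a are the muscle and liver forms of the outer-membrane carnitine palmitoyltransferase. Cpt1b (ENSMUSG00000078937.8, chr15:89416405-89425863, minus strand) had 109 TPM from 8731 counts in replicate 2 and 82.5 TPM from 5682 counts in replicate 1, a ratio of 1.47-fold (95% exact interval 1.42 to 1.52). Cpt1a (ENSMUSG00000024900.5, chr19:3322334-3385733, plus strand) had 7.44 TPM from 840 counts in replicate 2 and 5.83 TPM from 620 counts in replicate 1, a ratio of 1.30-fold (1.17 to 1.44). These were the members with the smallest ratios. The proportion between them was close in the 2 libraries: Cpt1b was 93.0% of the summed TPM of Cpt1a, Cpt1b and Cpt1c in each (mean 93.0 ± 0.0520%, SD, n = 2), and exceeded Cpt1a by 14.6 times in replicate 2 and 14.1 times in replicate 1. The reads-based shares were 91.4% in replicate 2 and 91.3% in replicate 1.

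Cpt1b is overlapped on the same strand by Gm44502, annotated as a transcript that joins it to the neighbouring gene Chkb. The alignment-based table gave Gm44502 no counts and the reads-based table gave it 1621 counts in replicate 2 and 1052 in replicate 1, beside 8145 and 5310 for Cpt1b. Cpt1b itself had 8731 counts by alignment in replicate 2 and 5682 in replicate 1, and how its reads divide with Gm44502 is uncertain. Of the Cpt1b transcripts, the coding Cpt1b-201 held 87.3% in replicate 2 and 78.4% in replicate 1. Cpt1b-202, which retains an intron, held 6.97% and 17.0% in replicates 2 and 1 by alignment, and 0 by reads. It is only 339 bases long and had 0.673% and 1.81% of the gene's alignment-based counts in replicates 2 and 1.

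The Cpt1a window, chr19:3323051-3323350 on the plus strand, is shown because it was 1 of the 2 with AGGTCA. Unlike that of Cd36, it also holds annotated transcript starts, those of Cpt1a-201 and Cpt1a-202. These held 81.6% and 80.6% of the gene's TPM in replicates 2 and 1 by alignment, and 67.3% and 71.2% by reads. Capitals mark AGGTCA on the minus strand (TGACCT as printed, 94 to 89 bases before the start), CAGCTG (32 to 27 bases before it) and GGGCGG on the minus strand (CCGCCC as printed, 3 matches).
Cpt1a: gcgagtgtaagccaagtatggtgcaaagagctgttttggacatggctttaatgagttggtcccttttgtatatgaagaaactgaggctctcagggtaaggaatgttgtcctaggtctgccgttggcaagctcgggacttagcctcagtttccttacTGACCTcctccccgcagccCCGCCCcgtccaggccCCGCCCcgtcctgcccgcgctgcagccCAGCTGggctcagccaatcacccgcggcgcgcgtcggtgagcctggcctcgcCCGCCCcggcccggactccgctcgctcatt

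Slc25a20, the carnitine-acylcarnitine translocase of the inner membrane (ENSMUSG00000032602.6, chr9:108662088-108684641, plus strand), had 29.6 TPM from 1615 counts in replicate 2 and 16.9 TPM from 875 counts in replicate 1, a ratio of 1.77-fold (95% exact interval 1.63 to 1.92). Cpt2, the transferase on the inner side (ENSMUSG00000028607.16, chr4:107903981-107923610, minus strand), had 25.7 TPM from 1636 counts in replicate 2 and 17.9 TPM from 976 counts in replicate 1, a ratio of 1.61-fold (1.48 to 1.74). The translocase and the inner transferase were close in level, Slc25a20 over Cpt2 being 1.15 in replicate 2 and 0.944 in replicate 1. Cpt1b, which acts before them, stood above both, at 3.68 and 4.88 times Slc25a20 and 4.23 and 4.60 times Cpt2 in replicates 2 and 1. Slc25a20 RNA was nearly all 1 transcript, Slc25a20-201, at 98.9% and 97.6% in replicates 2 and 1. Cpt2-201 held 78.9% of Cpt2 TPM in replicate 2 and 68.1% in replicate 1. Cpt2-206, which retains an intron, held 3.58% in replicate 2 and 14.6% in replicate 1 by alignment, and 9.995% and 25.5% by reads. It is 634 bases long, and its alignment-based shares rest on 15.8 and 42.8 counts in replicates 2 and 1. Those counts had posterior SDs of 15.7 and 17.6 and were 0.967% and 4.39% of the gene's counts.

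**Figure D3:**
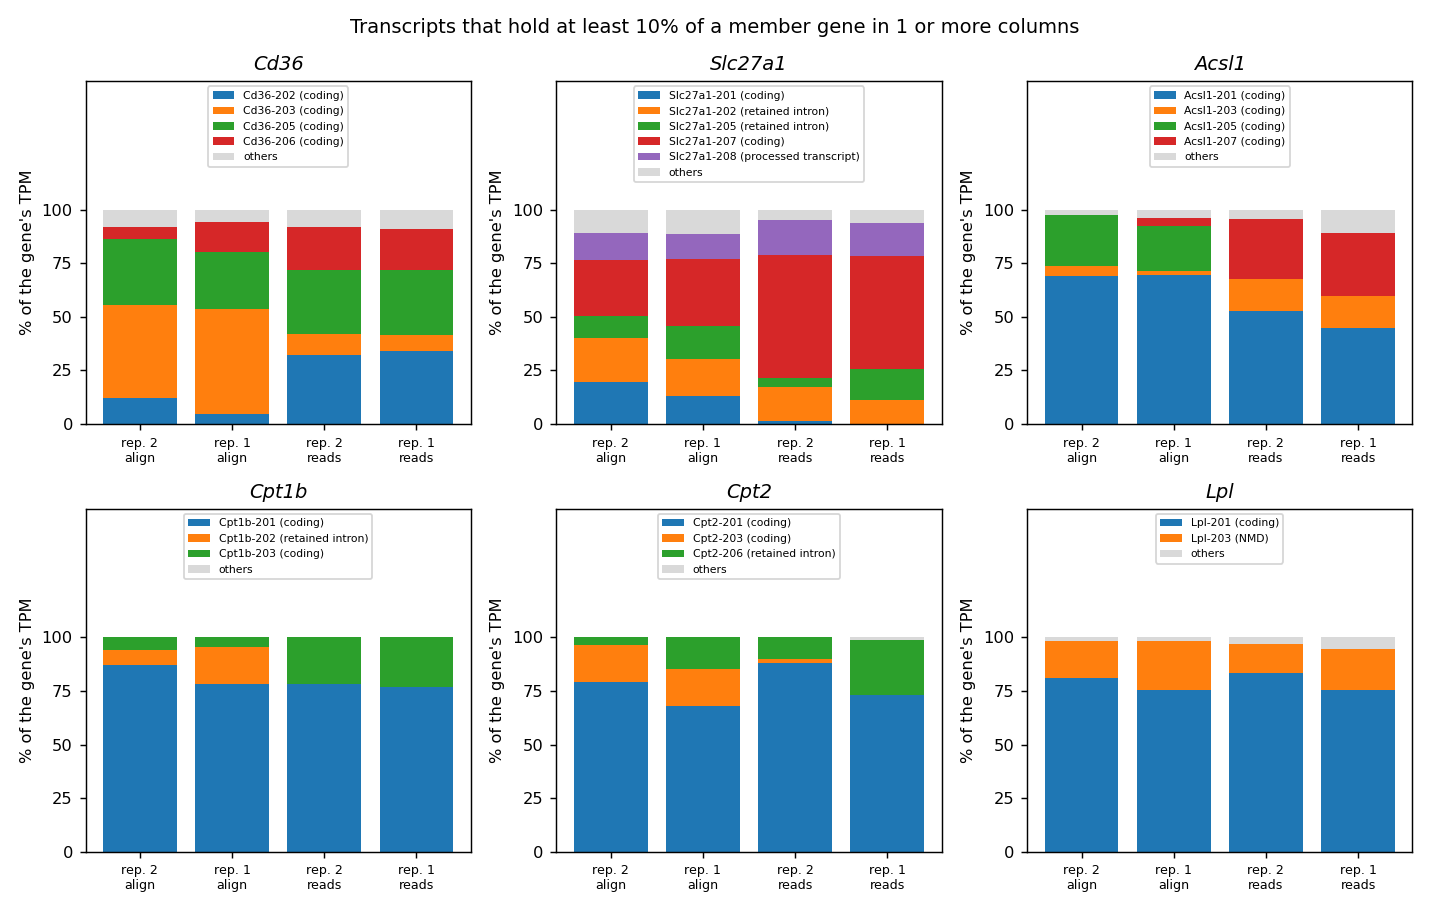
Share of a gene's TPM (vertical axis, %) held by each annotated transcript, for 6 members. Transcripts of at least 10% in any bar are coloured. Bars are replicate 2 and replicate 1 by alignment (align), then replicate 2 and replicate 1 from the reads directly (reads); grey is the rest. The shares of Cd36-203, Slc27a1-207 and Acsl1-201 differ more between the methods than between the libraries.

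Slc22a5 encodes OCTN2, the sodium-dependent carnitine transporter of the cell surface (ENSMUSG00000018900.7, chr11:53864542-53891660, minus strand). It was the lowest member, with 5.01 TPM from 395 counts in replicate 2 and 2.91 TPM from 224 counts in replicate 1, a ratio of 1.69-fold. Its interval was the widest in proportion (95% exact interval 1.43 to 2.00), as its counts were the fewest. It made up 82.3% in replicate 2 and 72.8% in replicate 1 of the TPM of Slc22a5 and its relative Slc22a4. Slc22a21, a close relative, was assigned 42.59 counts in replicate 2 and 38.85 counts in replicate 1. The posterior SD of the Slc22a5 count was 2.99 counts in replicate 2 and 2.65 in replicate 1, the same as that of Slc22a21. Among genes that make carnitine, Tmlhe had 1.89 and 1.64 TPM in replicates 2 and 1, Aldh9a1 had 1.75 and 1.09 TPM, and Bbox1, the last enzyme, had 5 counts in replicate 2 and 3 counts in replicate 1.

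The list of 4 enzymes of malonyl-CoA, the inhibitor of Cpt1, and of acetylcarnitine had a median log2 ratio of 0.17. Acacb, the acetyl-CoA carboxylase of the mitochondrial surface, had 65.1 TPM in replicate 2 and 58.6 TPM in replicate 1, a log2 ratio of 0.16, and was 10.7 and 8.59 times the cytosolic form Acaca in replicates 2 and 1. Acaca had 6.06 and 6.82 TPM in replicates 2 and 1, a log2 ratio of -0.36 that scaling to the spike-ins turned to 0.03. Mlycd, which removes malonyl-CoA, had 44.6 and 29.0 TPM in replicates 2 and 1, a log2 ratio of 0.63, which lay between those of Cpt1b and Slc27a1. Crat, the acetyltransferase that forms short-chain acylcarnitine, was the highest of the 4 at 149 and 135 TPM in replicates 2 and 1, with a log2 ratio of 0.18. None of the 4 was over 2-fold apart, except Mlycd where counts were scaled to the spike-ins (1.01).

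The enzymes of beta-oxidation, which use the acyl-CoA that the shuttle delivers, were higher in replicate 2 in 15 of 15 cases (49.0% of all genes were), 14 of them by over 1.5-fold (5.77%) and 4 by over 2-fold (2.11%). Their median log2 ratio of 0.83 was near the 0.75 of the members. Hadhb, a subunit of the trifunctional protein, had 157 TPM in replicate 2 and 95.1 TPM in replicate 1. Acadvl, the very-long-chain acyl-CoA dehydrogenase, had 151 and 71.2 TPM in replicates 2 and 1. Acaa2, the thiolase of the last step, had the largest log2 ratio of the list, 1.40, with 110 TPM in replicate 2 and 42.1 TPM in replicate 1.

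Of 16 other genes of the uptake, synthetase and carnitine families, 8 were detected in both libraries and 6 averaged 100 or more counts. By TMM scaling 1 of the 6 was higher and 5 were lower in replicate 2, with a median log2 ratio of -0.20, beside 49.0% of all genes higher. Scaling to the spike-ins, which shifts all genes upward alike, put 4 of these higher and 2 lower, beside 92.3% of all genes higher. Fabp2 had no counts in either library.

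Among regulators of oxidative metabolism, Esrrg had 11.9 TPM in replicate 2 and 0.71 TPM in replicate 1, Esrrb had 2.59 and 0.15 TPM in replicates 2 and 1, and Ppara, the fatty acid receptor of oxidative tissues, had 6.48 and 0.70 TPM. Their log2 ratios were 4.26, 4.41 and 3.14. Rxra, the partner of the PPARs, had 37.5 and 43.0 TPM in replicates 2 and 1. Of the 10 regulators that averaged 100 or more counts, 7 were higher in replicate 2 by TMM scaling, where 49.0% of all genes were, and 9 by spike-in scaling, where 92.3% were. By TMM scaling 5 were over 2-fold higher, as were 2.11% of all genes. Among other PPAR target genes, Pdk4, a kinase that restrains pyruvate oxidation, had 663 and 393 TPM in replicates 2 and 1, a log2 ratio of 0.81. Plin5, a lipid droplet protein of oxidative muscle, had 17.1 and 4.39 TPM in replicates 2 and 1, a log2 ratio of 1.97. Ucp3, a mitochondrial carrier, had 67.9 and 82.3 TPM in replicates 2 and 1, a log2 ratio of -0.25 that scaling to the spike-ins turned to 0.14.

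**Figure D4:**
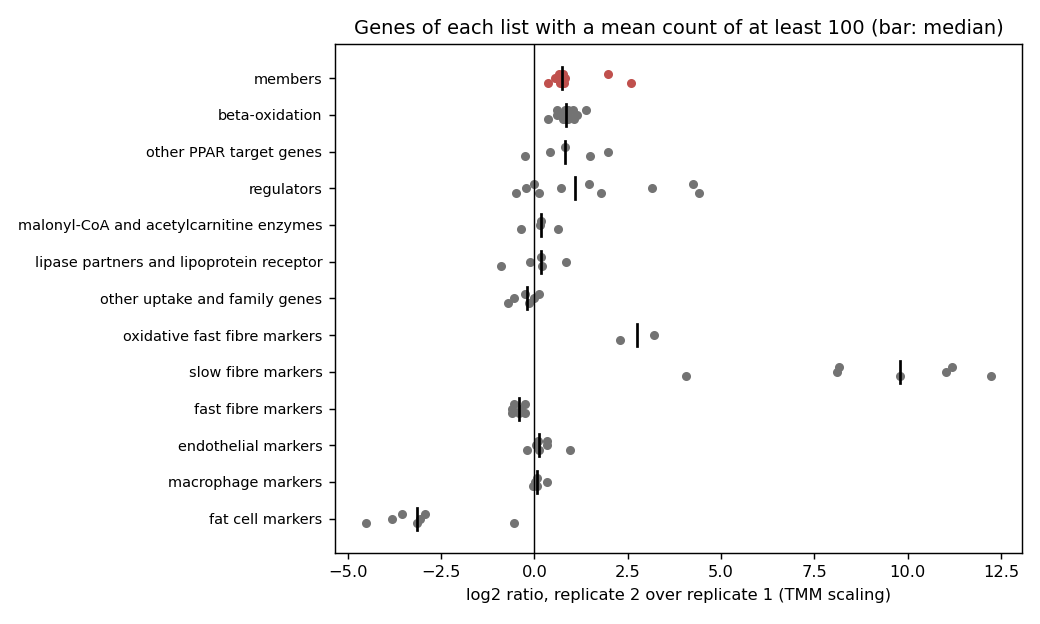
Log2 ratio of replicate 2 over replicate 1 (horizontal axis, TMM scaling) for the genes of each list that averaged 100 or more counts. Each point is 1 gene and the bar is the list's median: 0.75 for the members (red), 0.83 for beta-oxidation, 9.81 for slow fibre markers, -0.40 for fast fibre markers and -3.15 for fat cell markers.

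The direction of the 10 ratios did not depend on the scaling, but their size did. Scaling to the spike-in total moved the median of all genes to 0.38 and that of the members to 1.13, and 8 of the 10 were then over 2-fold higher, as were 5.19% of all genes. This scaling moves every gene by nearly the same amount, so the distance between the 2 medians cannot change with it.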

How the data were processed

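Total RNA was measured in 2 libraries of 1 group, with mm10 as the build and GENCODE M21 as the annotation, per the deposited file descriptions. The quantification programs are not named in the sources used here. Per the file headers, the authors deposited each expected count or estimated count without normalisation, TPM over all rows with spike-ins, a percent of the gene's TPM for each transcript, and a posterior SD of the count and posterior mean TPM, used here as a score. The first set of tables came from transcriptome alignments, and a further transcript table came from the reads directly and was summed per gene.

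The gene tables held 81881 rows, of which 55536 are genes, 26248 tRNA rows (0 and 3 counts in replicates 2 and 1, left out) and 97 spike-in rows. Expected counts were rounded, filtered with filterByExpr (14263 genes kept) and scaled by TMM in edgeR 4.0.16 (R 4.3.3), with a prior count of 0.5. DESeq2 1.42.0 size factors, total counts, spike-ins, TPM, reads-based counts, no filter and a prior count of 5 were the alternatives. Folds are ratios of scaled counts. The background was the 9996 genes that averaged 100 or more counts. Other steps ran in Python 3.11.15 (scipy 1.17.1, pandas 2.3.3, numpy 2.4.6; figures in matplotlib 3.10.9). The ratio step was tested on simulated counts that varied by counting error only, which checks the calculation and not the spread between real libraries. The small RNAs Rn7s1 and Rn7s2 took 27.7% and 34.0% of alignment-based TPM in replicates 2 and 1 and almost none of reads-based TPM, which lowers the alignment-based values of all other genes. Alignment to mm10 of reads from the other parental genome of the hybrid can also change counts, and this was not tested.

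The members and lists were chosen with earlier results of these data known. All members are named, and of each other list up to 4 genes, the highest by TPM and those with the largest log2 ratio. Fabp4 stands on both the family and the fat cell list. Neighbouring or near-identical genes and Fabp2 were named after their values were seen. Promoter sequences came from RefSeq (GRCm38.p6), and windows of Lpl and Cpt1b and protein sequences were not used here.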

Additional observations from a re-analysis of the deposited data

How the results depend on the processing

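Each member was higher in replicate 2 under all 7 alternative settings of the ratio (70 of 70 values above 0). The settings reuse the same 2 libraries, so the 70 values are not independent. Of all genes, 49.0% were higher in replicate 2 by TMM scaling and 92.3% by spike-in scaling. The median log2 ratio of 0.75 was 1.13 with spike-in scaling, under which 8 members were over 2-fold higher, as were 5.19% of all genes. With 1.5-fold in place of 2-fold, 8 members were higher by TMM scaling, as were 5.77% of all genes. The remaining scalings, filters and units left 2 members over 2-fold higher. The median TPM of 49.99 was 119 over protein-coding, non-mitochondrial genes, and 69.5 without replicate 1 and 30.4 without replicate 2. The Cpt1b share of Cpt1 TPM was 91.4% in the reads-based table, a small step beyond the narrow spread of 93.0%, and stayed at 93.0% when either library was left out. Of the 70 alternative log2 ratios of single members, 16 lay outside the counting interval, 10 of them under spike-in scaling. The reads-based table moved the TPM of 8 of 10 members, and the share of the leading transcript in 4 of 10 genes, by more than 1 SD of the 2 libraries. Including genes down to a mean of 10 counts took the share of all genes over 2-fold higher to 4.68%, from 2.11%. No paired analysis was possible because there is only 1 group, and no ratio can be had with a library left out. Depth limits Slc22a5 most, and the 2 libraries limit every statement on spread.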
